A study of Ananas comosus with 48 samples.

Results

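miR167a-5p is the mature small RNA from the 5′ arm of the miR167 hairpins, and it was 1 of the 190 mature miR sequences listed for the pineapple (Ananas comosus) shoot apex. It was taken by name, as the single row of the count table called miR167a-5p, and the deposited list of names gives miR167b-5p for the same sequence. The apices came from field plants of the cultivar MD1 (PRI 73-50). Control plants had 10 ml of water injected into their centre and treated plants 50 mg of ethephon in 10 ml, an agent that releases ethylene and forces pineapple to flower. Apices were sampled at 6 h, then daily from day 1 to day 6, and last at day 8, which gave 16 groups of 3 libraries, each library from the apices of 3 plants, 48 libraries in all. Leaf primordia remained on the excised apex, and no mature miR of a single apex cell type could be used to check the tissue. Plants of the 6 h sampling were harvested in the morning soon after the injections, then chilled, and their apices were dissected until early afternoon. Those of the later samplings were harvested at about the same time of the morning and processed by noon. Time after treatment and time between harvest and freezing therefore cannot be told apart at the 6 h sampling. All plants of a sampling were harvested on the same day. In a course within a treatment, time after treatment and harvest day therefore cannot be told apart.

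MicroRNAs guide an Argonaute protein to transcripts that pair with them, which are then cut or less translated. In Arabidopsis, miR167 pairs with the transcripts of ARF6 and ARF8, auxin response factors (ARFs) that switch on auxin-induced genes and are needed for flower maturation. Of the other miRs linked to auxin, miR160 targets a separate set of ARFs that mostly repress, miR390 starts the small RNAs that silence further ARFs, and miR393 targets the F-box receptors of auxin. Whether these pairings act in the pineapple apex was not measured in the small RNA libraries.

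The listed miR167 sequences are printed because the 5p and 3p arms carry unequal counts, with the seed (bases 2 to 8 from the 5′ end) in capitals.
miR167a-5p: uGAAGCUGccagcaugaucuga
miR167a-3p: aGAUCAUGcggcaguuucauc
miR167b-3p: aGAUCAUGuugcaguuucauc
The 5p sequence has 22 bases, as have 29 of the 190 listed sequences, and none of the others shares its seed. Set against the 3p arm of the same hairpin, it left 2-base overhangs at both 3′ ends, with 18 Watson-Crick pairs and 1 G-U pair among 19 facing bases and 1 unpaired base at position 11 of the 5p arm. The 3p arm of the b copy differs from that of the a copy by C9U and G10U, counted from its 5′ end. Because the a and b hairpins give the same 5p sequence, the counts of miR167a-5p cannot be divided between them. miR160a-5p and miR160d-5p, the 5p arms used for a ratio further on, share 1 seed and differ by U15A.
miR160a-5p: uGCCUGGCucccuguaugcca
miR160d-5p: uGCCUGGCucccugaaugcca

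miR167a-5p had 23303 counts over the 48 libraries, 0.792% of the 2941610 counts in listed miRs and the 10th highest count of the 190 sequences. A library held 18581 to 91791 counts in listed miRs (median 61482) and 108 to 1291 of miR167a-5p (median 380.5). Counting alone then gives a coefficient of variation of 2.88% to 7.75% per group, below the 5.33% to 32.5% seen between the 3 libraries of a group in all but ethephon at day 6, where counting gives 5.48%. Levels are given as CPM, counts scaled to a library total of 1000000, after TMM scaling, in which that total is adjusted for the composition of the library. Of the 127 sequences with a count, 57 passed the filter on low counts and were tested with edgeR, and miR167a-5p had the 13th lowest biological coefficient of variation of these (0.196, median 0.259). Listed miRs were 0.466% ± 0.077 (SD, n = 24) of all sequencing tags in water and 0.395% ± 0.091 (SD, n = 24) in ethephon, so results are also given on the scale of all tags. Apices are bulk samples, in which fewer cells that hold a miR and less of it per cell cannot be told apart.

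The level of miR167a-5p rose and fell over the week in both treatments, with a high stage from day 2 to day 4. In water the 3 libraries at 6 h had 3218, 4096 and 3319 CPM, and those at day 1 had 2687, 4121 and 3367 CPM. At day 2 they had 10208, 11797 and 13315 CPM, at day 3 15444, 15499 and 11306 CPM, and at day 4 9455, 12211 and 13217 CPM. The 6 early libraries lay below all 9 libraries of days 2 to 4. At day 5 the level had come down to 6447, 4485 and 4908 CPM. Day 6 libraries had 10365, 5630 and 6790 CPM and day 8 libraries 3934, 3836 and 5959 CPM. One day 6 library in water therefore reached the range of the high stage, and the other 5 of these late libraries did not.

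**Figure D1:**
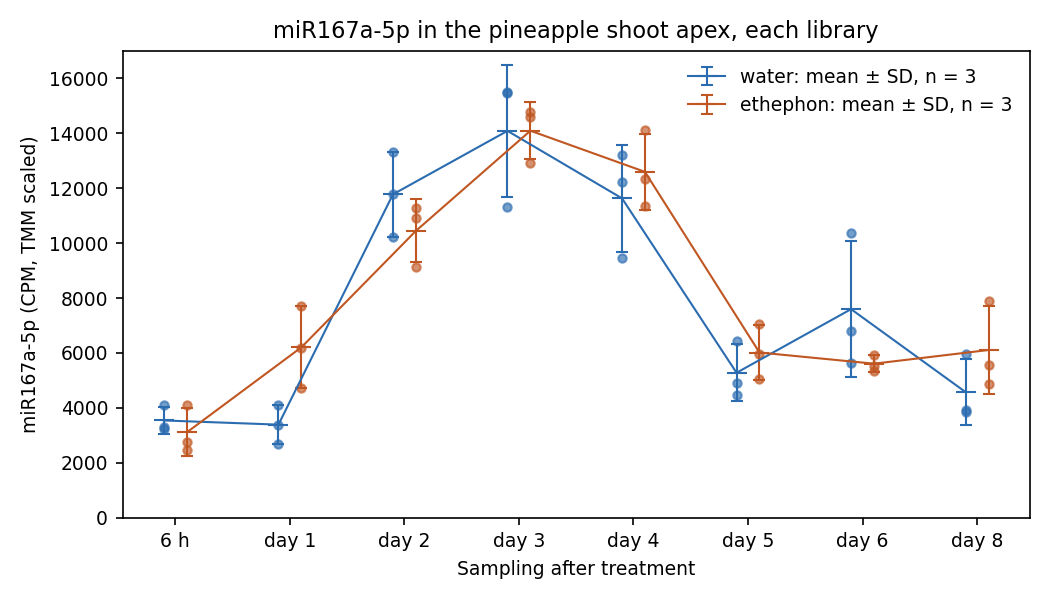
Level of miR167a-5p (y axis, CPM after TMM scaling) in each of the 48 libraries at the 8 samplings (x axis), with water in blue and ethephon in orange. Points are libraries, and bars are the mean ± SD of 3. Both treatments peak at day 3, near 14100 CPM, and at day 1 the ethephon libraries (4719 to 7701 CPM) lie above the water libraries (2687 to 4121 CPM).

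In ethephon the 6 h libraries had 4104, 2771 and 2456 CPM. The day 1 libraries, at 6195, 4719 and 7701 CPM, were all above them. At day 2 the libraries had 11281, 9138 and 10908 CPM, at day 3 14602, 12900 and 14765 CPM, and at day 4 14100, 12328 and 11351 CPM. These 9 libraries lay above every other ethephon library. The level was 7048, 5041 and 5961 CPM at day 5, 5543, 5351 and 5938 CPM at day 6, and 7899, 4878 and 5549 CPM at day 8. After the high stage, treated apices stayed above their 6 h level in every library in CPM after TMM scaling. This did not hold on the scale of all tags, where ethephon day 5 replicate 2 lay below every ethephon 6 h library. That replicate had the lowest count in listed miRs of all libraries (18581).

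The change over the samplings passed the test in each treatment. The libraries of a group share a harvest day, so the test also takes in any difference between harvest days. The edgeR F was 25.5 in water (adjusted p = 8.0e-12) and 19.7 in ethephon (adjusted p = 5.9e-10), where 47.4% and 50.9% of the 57 tested miRs were called. In both treatments miR167a-5p had the highest F of the 57. The next highest were 12.2 for miR160d-5p in water and 14.6 for miR827a-5p, a miR linked to phosphate transport, in ethephon. Its 16 group means spanned 2.2 on the log2 scale, which ranked 10th of 57 (median 1.54). Ordered by level, the groups ran from ethephon day 3 (14089 ± 1033 CPM, SD, n = 3) and water day 3 (14083 ± 2405) down to water day 1 (3392 ± 717) and ethephon 6 h (3110 ± 875). The ranges of all 15 neighbours in that order overlapped.

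**Figure D2:**
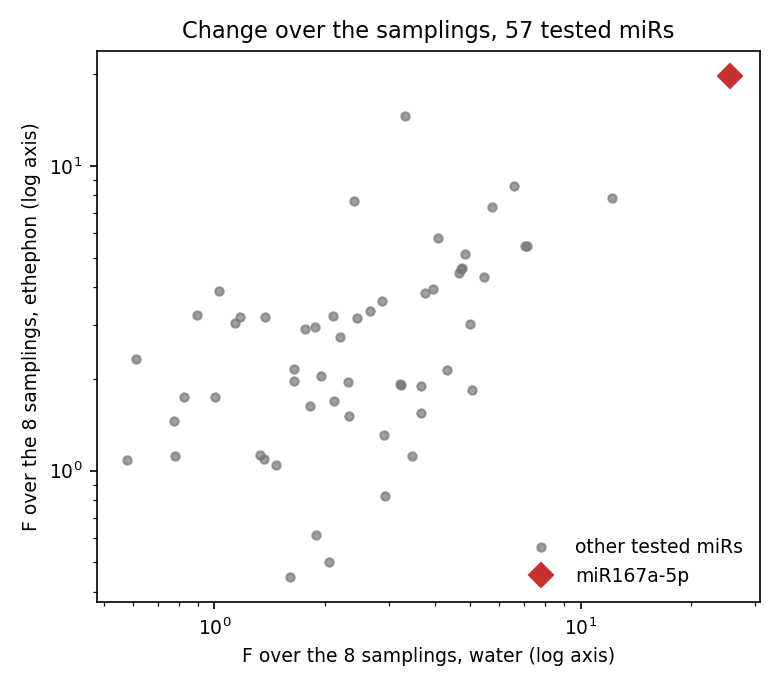
edgeR quasi-likelihood F for a change over the 8 samplings in water (x axis, log scale) and in ethephon (y axis, log scale) for the 57 tested miRs, 1 point each. miR167a-5p (red diamond, 25.5 and 19.7) lies at the upper right, past every other miR on both axes.

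Step by step, the rise that passed the test lay at a different step in each treatment. A direct test of the steps between the treatments, given further on, did not pass with TMM factors. In ethephon miR167a-5p rose from 6 h to day 1, by 1.00 on the log2 scale (SE 0.23, edgeR adjusted p = 0.0135), and it was the only one of the 57 miRs called at that step (1.75%). In water the level differed by -0.06 (SE 0.23, adjusted p = 0.921) over the same step and then rose 3.46-fold from day 1 to day 2 (log2 1.79, SE 0.23, adjusted p = 1.0e-06), a step at which 5.26% of miRs were called. The ethephon step from day 1 to day 2 was 0.75 (SE 0.23, adjusted p = 0.0898). From day 4 to day 5 the level fell by 1.14 (SE 0.23, adjusted p = 0.00259) in water and by 1.06 (SE 0.23, adjusted p = 0.00652) in ethephon, where 8.77% and 1.75% of miRs were called. These were 4 of the 14 steps, with p-values adjusted over the 57 miRs and 14 steps together, and 1.25% of all these tests were called. The other 10 steps of miR167a-5p had adjusted p of 0.0898 to 0.921.

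The rise of the water libraries from day 1 to day 2 kept its call with any library, or any replicate number, left out (log2 1.67 to 1.95). The ethephon rise from 6 h to day 1 lost it without ethephon 6 h replicate 2 (0.92, adjusted p = 0.0592), ethephon 6 h replicate 3 (0.76, adjusted p = 0.0932) or ethephon day 1 replicate 3 (0.78, adjusted p = 0.0800). It also missed the threshold with replicate 2 or replicate 3 of every group left out (1.09, adjusted p = 0.134, and 0.60, adjusted p = 0.355), with no composition factor (0.67, adjusted p = 0.181), on the scale of all tags (0.64, adjusted p = 0.368) and with no filter on low counts (0.87, adjusted p = 0.0515). Both falls from day 4 to day 5 kept their call with any single library left out. The fall in water missed the threshold with replicate 2 or replicate 3 of every group left out (adjusted p = 0.136 and 0.115), and the fall in ethephon with replicate 2 left out (adjusted p = 0.138).

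**Figure D3:**
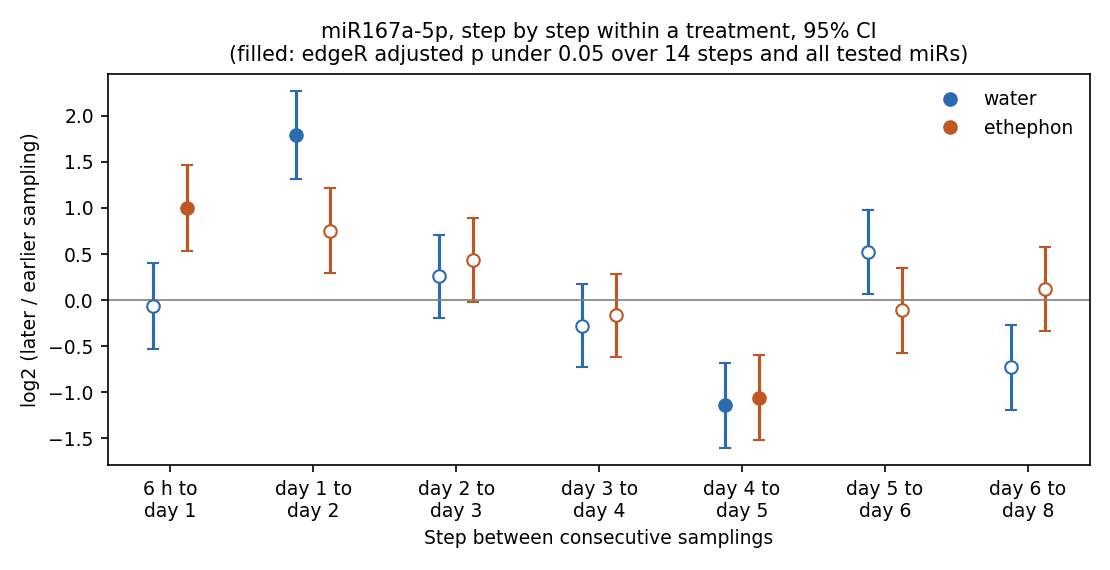
Log2 ratio of each sampling to the one before it (y axis) for the 7 steps (x axis) in water (blue) and ethephon (orange), with 95% confidence intervals from edgeR. Filled points passed the threshold: the water step from day 1 to day 2 (1.79), the ethephon step from 6 h to day 1 (1.00), and the falls from day 4 to day 5 (-1.14 and -1.06).

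The difference between the steps of the treatments was tested as well, a contrast added after the data were seen. The step from 6 h to day 1 was larger in ethephon by 1.06 (SE 0.33) and that from day 1 to day 2 smaller, by -1.04 (SE 0.32). With adjustment over the 7 differences of steps and 57 miRs, both had an edgeR adjusted p of 0.171, and 0% of these tests were called. The second difference passed with RLE factors in edgeR (-1.21, adjusted p = 0.0455) and with DESeq2 (-1.21, adjusted p = 0.0212), while the first did not with either (1.12 in both, adjusted p = 0.0853 and 0.0541). With TMM factors neither difference of steps passed.

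Ethephon against water was tested at each sampling. Averaged over the samplings, the log2 difference was 0.10 (SE 0.08, 95% CI -0.06 to 0.26, edgeR adjusted p = 0.350), in a comparison in which 42.1% of the 57 miRs were called. It was 0.0015 without replicate 1 of every group, 0.18 without replicate 2, and 0.015 without water day 1 replicate 1. At day 1 treated apices had 6205 ± 1491 CPM (SD, n = 3) and controls 3392 ± 717 CPM, without overlap between the libraries. The log2 difference was 0.87 (SE 0.23, 95% CI 0.40 to 1.33, adjusted p = 0.0150), and only 3.51% of miRs were called at that sampling, miR167a-5p being the one that rose. Libraries of the groups did not overlap for 29.8% of the tested miRs at day 1, and for 26.1% of all miR and sampling pairs. The median log2 difference of the 57 miRs at day 1 was -0.26, so relative to it miR167a-5p was higher by 1.13.

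At the other samplings miR167a-5p was not DE and the libraries overlapped. The log2 differences were -0.19 (SE 0.23, adjusted p = 0.651) at 6 h, -0.17 (SE 0.23, adjusted p = 0.789) at day 2 and 0.00 (SE 0.22, adjusted p = 0.993) at day 3. They were 0.12 (SE 0.22, adjusted p = 0.937) at day 4 and 0.19 (SE 0.23, adjusted p = 0.653) at day 5. At day 6 the difference was -0.44 (SE 0.23, 95% CI -0.89 to 0.02, adjusted p = 0.250) and at day 8 0.41 (SE 0.23, 95% CI -0.04 to 0.87, adjusted p = 0.163). The share of the 57 miRs called was 10.5% at 6 h, 5.26% at day 2, 14% at day 3, 8.77% at day 4, 12.3% at day 5, 3.51% at day 6 and 31.6% at day 8. During the high stage, with TMM factors, the intervals of miR167a-5p stayed within -0.63 and 0.57 on the log2 scale. Changes beyond about that size at days 2 to 4 were outside them with these factors. On the scale of all tags the day 2 difference was larger, at -0.69 (edgeR adjusted p = 0.11).

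**Figure D4:**
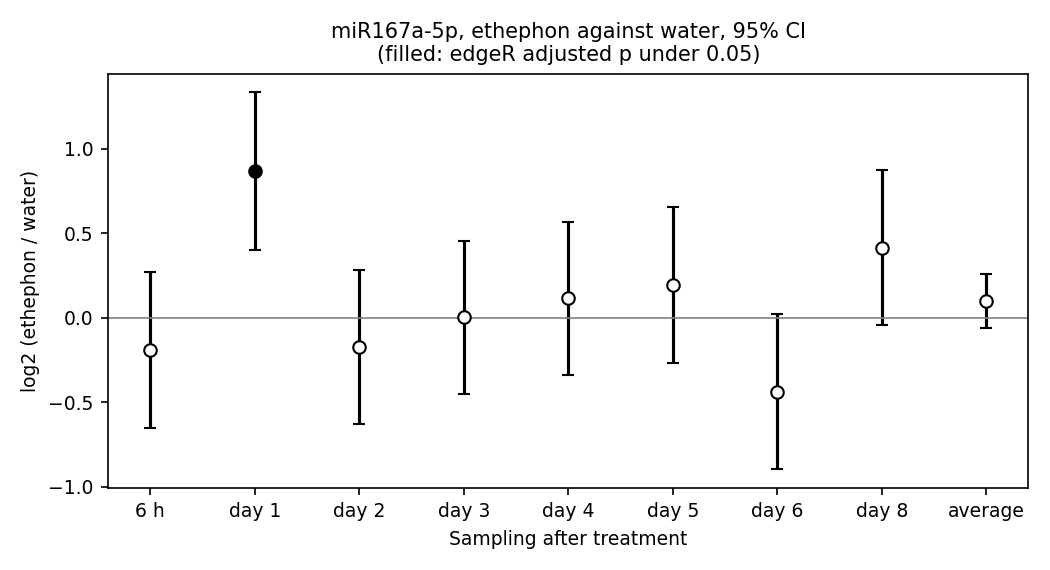
Log2 ratio of ethephon to water for miR167a-5p (y axis) at each sampling and averaged over the 8 samplings (x axis), with 95% confidence intervals from edgeR. The day 1 value (0.87, filled) passed the threshold, and the intervals of the other samplings and of the average (open) include 0.

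The day 1 call depended on single libraries. Without water day 1 replicate 1 the log2 difference was 0.82 (edgeR adjusted p = 0.0822), and without ethephon day 1 replicate 3 it was 0.76 (adjusted p = 0.0797). With replicate 1 or replicate 3 of every group left out it was 0.73 (adjusted p = 0.205) and 0.69 (adjusted p = 0.187), and with no filter on low counts 0.74 (adjusted p = 0.0801). It stayed between 0.69 and 1.195 with any library or replicate number left out. A test of any difference at the 8 samplings together passed (F 2.91, adjusted p = 0.0306, 38.6% of miRs called). This call was lost with replicate 1, 2 or 3 of every group left out (adjusted p = 0.0652 to 0.182), on the scale of all tags (adjusted p = 0.0961) and with no filter on low counts (adjusted p = 0.310). The test that the difference changes between samplings did not pass (F 3.13, adjusted p = 0.103, 1.75% of miRs called). Neither did the day 1 difference against the mean of the other 7 (0.88, SE 0.25, adjusted p = 0.0880), in a family of 8 such contrasts in which 0.439% of tests were called. That contrast passed with RLE factors in edgeR (0.96, adjusted p = 0.0228) and with TMM factors set without the most abundant miR (0.89, adjusted p = 0.0479), so its call was not the same under every scaling. It also passed with DESeq2 (0.95, adjusted p = 0.0101), which differs in the test as well.

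As a share of all sequencing tags, which needs no composition factor, the water course again rose from day 1 to day 2, while in ethephon the step from day 1 to day 2 did not pass the test. Per 10000000 tags the water libraries held 91.3, 168 and 123 counts of miR167a-5p at day 1 and 637, 449 and 439 at day 2. The ethephon libraries held 246, 231 and 222 at day 1 and 311, 388 and 247 at day 2. On this scale the ethephon libraries of day 2 lay just above those of day 1, overlapped those of days 5, 6 and 8 and lay below all of days 3 and 4, and the ethephon steps were 0.44 from day 1 to day 2 and 1.07 from day 2 to day 3 (edgeR adjusted p = 0.570 and 0.0887). The libraries of the treatments did not overlap at day 1, with ethephon higher, nor at day 2, where ethephon was lower by a log2 difference of -0.69, nor at day 3, where it was higher by 0.40. Each of these had an exact two-sided permutation p of 0.1, the smallest that 3 against 3 allows. How many of the other tested miRs did not overlap on this scale was not counted. The mean over the 8 samplings was -0.02 (permutation p = 0.893, two-sided, 100000 shuffles of treatment within samplings), with ethephon higher at 3 of 8. At day 2 the listed miRs were 0.313% ± 0.128 (SD, n = 3) of the tags in ethephon and 0.472% ± 0.103 (SD, n = 3) in water, and the part of this in the day 2 difference was not tested. On this scale the edgeR difference at day 1 was 0.87 with an adjusted p of 0.175.

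Counts of different miRs are not molar amounts, since ligation and PCR favour some sequences, but their ratio within a library can be followed between groups and does not depend on the scaling. The counts of miR167a-5p were set against those of miR160a-5p plus miR160d-5p, the other miR family that pairs with ARFs directly. In water the ratio was 0.490, 0.548 and 0.660 at 6 h and 0.310, 0.536 and 0.443 at day 1, and in ethephon it was 1.12, 0.682 and 0.681 at 6 h and 1.55, 1.51 and 1.81 at day 1. It was highest in ethephon at day 3, at 4.83, 4.61 and 5.21, against 1.82, 1.97 and 2.18 in water. Ethephon libraries were above all water libraries at 7 of the 8 samplings and overlapped with them at day 6. With all listed miR160 sequences as the denominator they overlapped at 6 h as well (exact permutation p = 0.2). For how many other tested miRs the libraries did not overlap over the same denominator was not counted. The log2 ratio averaged 0.03 ± 0.88 (SD, n = 24) in water and 1.07 ± 0.84 (SD, n = 24) in ethephon, and its mean difference within samplings was 1.04 (permutation p = 1e-05, two-sided, the smallest that 100000 shuffles can give). The miR160 family was listed with earlier results of these data known, and the p covers both sides of the ratio. The mean of ethephon was higher at 8 of 8 samplings, by 0.52 at 6 h to 1.95 at day 1.

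**Figure D5:**
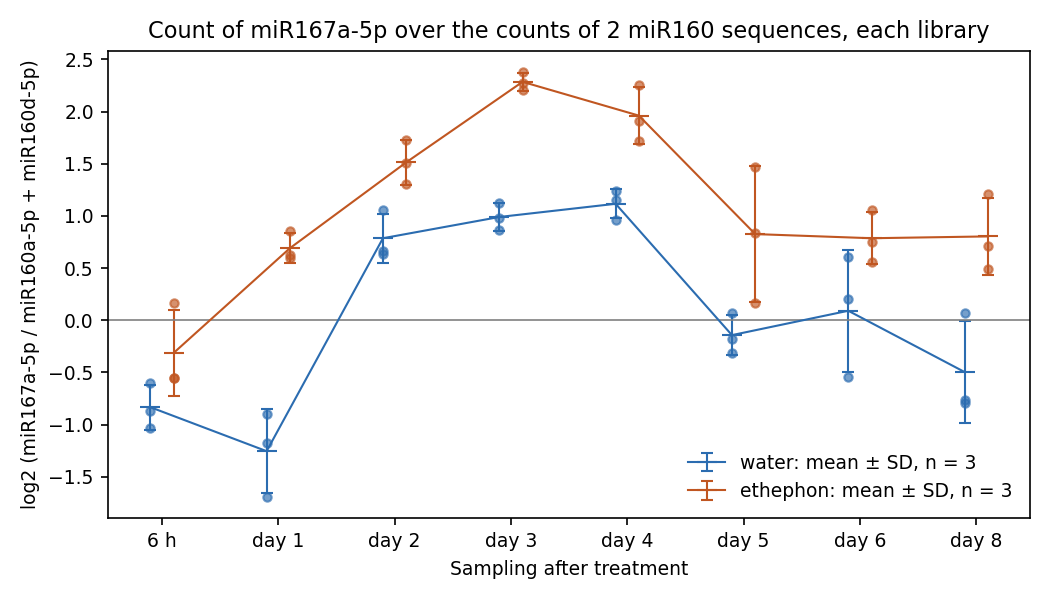
Log2 ratio of the miR167a-5p count to the summed counts of miR160a-5p and miR160d-5p (y axis) in each library at the 8 samplings (x axis), with water in blue and ethephon in orange. Points are libraries, and bars are the mean ± SD of 3. Ethephon means lie above water means at 8 of 8 samplings, and only at day 6 do the libraries overlap.

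Most of that difference lay in the denominator. Averaged over the samplings, the log2 differences were -0.90 for miR160a-5p (SE 0.07, edgeR adjusted p = 2.1e-14), -0.98 for miR160d-5p (SE 0.10, adjusted p = 1.2e-11) and 0.10 for miR167a-5p. At day 1 both sides of the ratio differed, as miR160d-5p went from 4132 ± 475 to 1188 ± 255 CPM (SD, n = 3) while miR167a-5p was higher. miR160a-5p differed by -0.56 at day 1 (SE 0.20, edgeR adjusted p = 0.0881). Within water, miR160d-5p fell from 4132 ± 475 CPM at day 1 to 1360 ± 325 CPM at day 2, the step at which miR167a-5p rose. Water day 1 was the highest group mean of miR160d-5p, which had 2212 ± 735 CPM in water at 6 h.

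The auxin list holds 17 sequences of the miR160, miR167, miR390 and miR393 families, of which 13 had a count and 10 were tested. Averaged over the samplings, 2 of the 10 fell, both miR160 5p arms, and 8 did not pass the test, with a median log2 difference of -0.10 beside -0.05 for all 57. In all, 42.1% of the tested miRs were called in this comparison and 22.8% fell. At day 1 miR167a-5p rose, miR160d-5p fell, and the list's median was -0.45 beside -0.26. miR390a-5p differed by -0.26 (SE 0.32, adjusted p = 0.619) at day 1 and rose by 0.94 (SE 0.31, adjusted p = 0.0228) at day 8, where miR167a-5p was not DE. miR393a-5p, whose sequence contains that of miR393b-5p and which had 342 counts to the 341 of that sequence, differed by -0.02 (SE 0.20, adjusted p = 0.904) on average. miR393a-3p, miR393b-3p, miR393c-5p and miR393d-3p had 0 counts in the 48 libraries.

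The 3p arms of miR167 were rare and were not tested. miR167a-3p had 185 counts in 46 libraries and miR167b-3p 8 counts in 7 libraries. In water miR167a-3p was 0.314% of the counts of miR167a-5p and miR167a-3p together at days 2 to 4 (22 of 7009, exact 95% interval 0.197% to 0.475%). At the other samplings it was 1.298% (0.990% to 1.67%). The shares leave out miR167b-3p, although the a and b hairpins have the same 5p sequence. Single groups did not all follow the stages, since water day 4 had 0.557% (0.312% to 0.917%), near the 0.572% (0.230% to 1.17%) of water day 6 and the 0.793% (0.291% to 1.72%) of water 6 h. The 5p counts make up nearly all of the denominator, so a rise of miR167a-5p alone lowers the share. In ethephon the shares were 0.783% (0.595% to 1.01%) and 1.02% (0.745% to 1.35%), with intervals that overlap. The intervals pool the libraries of a stage and cover counting error only.

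Across the 16 group means of log2 CPM, the miRs most like miR167a-5p were miR171b-3p (Pearson r 0.84), miR171g-3p (0.69), miR159b-3p (0.67), miR390a-5p (0.62) and miR160a-3p (0.54). miR171 targets GRAS factors of the meristem and miR159 targets GAMYB factors. The families were not alike as a whole, since the other 7 tested miR171 sequences ranged from -0.57 (miR171a-3p) to 0.52 (miR171c-5p) and the other 4 of miR159 from -0.22 (miR159c-3p) to 0.31 (miR159a-3p), the ends being named after their values were seen. miR171b-3p had 666 ± 157 CPM (SD, n = 9) at days 2 to 4 and 411 ± 99.9 CPM (SD, n = 15) at the other samplings in water, and 596 ± 121 and 347 ± 73.4 CPM in ethephon. The ethephon means at these stages were 138 and 78.8 CPM for miR171g-3p and 977 and 657 CPM for miR390a-5p. For miR159b-3p (18124 and 17466 CPM) and miR160a-3p (234 and 216 CPM) they hardly differed. miR171g-3p averaged only 6.52 counts a library. The least like were miR396a-3p (-0.89), miR396b-5p (-0.86) and miR396a-5p (-0.83), the arms of a family that targets growth-regulating factors. miR396a-5p had 1057 ± 210 CPM (SD, n = 9) at days 2 to 4 in water and 2176 ± 585 CPM (SD, n = 15) at the other samplings, and 761 ± 224 and 1460 ± 605 CPM in ethephon. These correlations describe likeness over group means that share libraries and scaling. On the scale of all tags the correlation was 0.81 for miR171b-3p. It was -0.67 for miR396a-5p, -0.65 for miR396b-5p and -0.59 for miR396a-3p, and the least like on that scale was miR528a-5p (-0.78).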

How the data were processed

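Small RNA libraries (NEBNext kit, 50 nt reads) of shoot apices were analysed. The authors cut adapters, collapsed identical reads, aligned them to mature miRs of miRBase and deposited whole counts per mature sequence. The aligner and the mismatches allowed were not given in the sources used here. The deposited table also holds a score, which the authors calculated as reads per 10000000 sequencing tags and rounded to whole numbers. The tags of each library were recovered from count and score where the score was at least 100. Columns that pool the libraries were not used.

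Counts were tested with the edgeR 4.0.16 quasi-likelihood test in R 4.3.3, with 1 mean for each of the 16 groups over all 48 libraries, TMM factors and filterByExpr (minimum count 10, minimum total count 15). Benjamini-Hochberg adjustment ran over the 57 tested miRs, and for steps, contrasts against the other samplings and differences of steps over the miRs and contrasts together. The threshold was an adjusted p of 0.05. Ratios and tag shares were tested by permutation (numpy 2.4.6). Alternatives were RLE factors, no composition factor, the scale of all tags, TMM without the most abundant miR, no filter, a replicate block, summed miR167 sequences, DESeq2 1.42.0, limma-voom (limma 3.58.1), the libraries of a sampling alone, and each replicate left out. The differences of steps, and the alternatives for steps and contrasts, were added after the data were seen. The scripts were tested on simulated data.

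The miRs named are the listed miR167 sequences, the auxin list, and the 5 miRs most and 3 least correlated with miR167a-5p over group means. miR827a-5p and miR528a-5p were named after their values were seen. miR167a-5p and the lists were chosen with earlier results of these data known. The labels describe 3 biological replicates of 3 apices each, and no pair of libraries of a group agreed within sampling noise (48 pairs, lowest chi-square per degree of freedom 6.69). In the paper the field plot was split into 3 replications, each holding control and treated plants. Deviations from the group means of water and ethephon libraries with the same replicate number had correlations of -0.38 to 0.36 (median 0.03). With other numbers they were -0.47 to 0.46 (median -0.02), so the numbers were not taken to pair the libraries. A replicate block was run as an alternative.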

Additional observations from a re-analysis of the deposited data

How the results depend on the processing

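The change over the samplings in water and in ethephon, the water rise from day 1 to day 2 and the ratio to miR160 kept their direction and their call under every alternative run for them. With a replicate left out, the mean log2 difference of the ratio between ethephon and water was 0.89 to 1.12. The average difference passed with no composition factor (0.23, edgeR adjusted p = 0.0185), which shifts the median miR by 0.12, and was -0.025 on the scale of all tags. On that scale the day 1 difference was 0.87 (adjusted p = 0.175), the test of any difference no longer passed (F 2.21, adjusted p = 0.0961), 1 miR was called at day 1, and the differences at days 4 and 5 were -0.19 and -0.17. With no filter on low counts the day 1 difference was 0.74 (adjusted p = 0.0801), the test of any difference no longer passed (F 1.72, adjusted p = 0.310) and the miRs called at day 1 numbered 1. At 6 h the difference was 0.13 with no composition factor. As a share of the counts in listed miRs in place of all tags, the mean difference was 0.24 (permutation p = 0.00797). Under RLE factors, TMM without the most abundant miR and DESeq2, 1 of the 8 contrasts against the other samplings passed, where 0 had. The causes were not tested.

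Uncalled steps changed sign: from day 5 to day 6 in ethephon 0.094 with no composition factor, 0.27 on all tags, 0.014 without the most abundant miR and 0.10 with no filter, and in water on all tags -0.0079 from day 2 to day 3 and 0.30 from day 3 to day 4. With a replicate block, which changed no call of miR167a-5p, the day 1 difference was 0.85 (adjusted p = 0.0165), that at day 3 was -0.0035, and 4 miRs were called at day 1 in place of 2.

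With replicates left out, the average difference ranged from 0.0015 to 0.18, and the differences at single samplings from -0.52 to 0.083 at 6 h, 0.69 to 1.195 at day 1, -0.34 to -0.058 at day 2, -0.11 to 0.14 at day 3, -0.10 to 0.26 at day 4, -0.012 to 0.32 at day 5, -0.58 to -0.094 at day 6 and 0.087 to 0.73 at day 8. The lowest size at day 6 came without water replicate 1, and the lowest and highest at day 8 without replicates 1 and 3 of every group. The F for any difference ranged from 1.98 to 3.01, the called steps from 1 to 4, the miRs called at day 1 from 1 to 2, and the difference in tag share from -0.17 to 0.080. Uncalled steps ranged from -0.23 to 0.0086 (water, 6 h to day 1), -0.18 to 0.037 (ethephon, day 5 to day 6) and -0.12 to 0.27 (ethephon, day 6 to day 8). With 3 libraries a group, 95% intervals at 1 sampling spanned about 0.45 to either side on the log2 scale.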
